A study of Mus musculus with 12 samples.

Results

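The genes described here are those whose symbol starts with Nduf, which name the nuclear-encoded subunits of mitochondrial complex I, several of its assembly factors and Ndufa4. Every probe set, a group of probes that reads 1 stretch of transcript sequence, was taken if the platform annotation gave it 1 gene with such a symbol. This gave 74 probe sets for 39 genes, out of 12393 genes measured by 22626 probe sets, and for each gene the brightest probe set over 12 arrays stands for it. The arrays (Affymetrix MOE430A) carried total RNA of white gastrocnemius, the pale region of this calf muscle, in which fast fibres prevail. Knockout arrays came from 6 male mice with a knockout of Prkag3, the gene of the gamma3 subunit of the AMP-activated protein kinase (AMPK). Wild type arrays came from 6 male littermates. All mice were 14 weeks old, had fasted overnight and were labelled as generation F7 on C57BL/6. The 6 arrays of a genotype are described as biological replicates in the series' design. The comparison asks whether complex I transcripts of fast muscle are at other levels without gamma3, a subunit found mainly in fast glycolytic fibres.

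Complex I, or NADH dehydrogenase, is the entry point of electrons from NADH into the respiratory chain. It has a hydrophilic arm in the mitochondrial matrix, whose N module oxidizes NADH and whose Q module passes the electrons to ubiquinone, and a membrane arm that pumps protons. Conserved core subunits carry the chemistry, and accessory subunits surround and stabilize them, while assembly factors help to build the enzyme and are absent from the finished complex. AMPK senses a shortage of cellular energy and, in muscle, is known to favour mitochondrial gene expression partly through the coactivator PGC-1alpha.

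Levels are log2 intensities that the authors computed with RMA. A change is the knockout mean less the wild type mean, given with the standard error (SE) that limma estimated. The mean level of the 39 genes ran from 6.64 for Ndufaf7 to 12.43 for Ndufb9, and 38 of 39 lay above the median level of all genes, 7.43. Levels of different probe sets are not comparable as amounts of RNA. From the hybridization times in the array records, the arrays were grouped here into 3 runs, called wash runs. Each held 2 knockout and 2 wild type arrays. Fast fibre markers were bright in both genotypes, with Actn3 at 14.07 ± 0.0317 on knockout arrays and 14.04 ± 0.0551 on wild type arrays (SD, n = 6 each). Prkag3 was not analysed here. Ndufa11, Ndufb4 and Ndufs6 were read only by probe sets that name several genes and were left out. No gene of the mitochondrial genome's own complex I subunits was measured (0 with a symbol starting mt-Nd). In tissue RNA, fewer cells of a type and less RNA per cell cannot be told apart.

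Promoters of the members were searched for the letters bound by factors known to control respiratory genes. The RefSeq promoter table (GRCm38.p6), with 250 bases before and 50 after the transcription start, held 36 of the 39 genes. The letters AAGATGG, the core of the YY1 element, stood on either strand in 6 of 36 (16.7%), against 7.86% of 9882 genes measured on the array and 7.28% of 27025 genes in the table. The core CGCATGCG of the NRF1 element, which reads the same on both strands, stood in 3 of 36 (8.33%), against 3.51% of measured genes and 2.07% of the table. For the ETS letters CCGGAAG, bound by GABPA, the share was 5 of 36 (13.9%), against 16.4% of measured genes and 9.93% of the table. The letters AAGGTCA of the oestrogen-related receptors stood in 2 of 36 (5.56%), against 4.35% of measured genes and 5.38% of the table. No gene held letters of more than 1 of the 4 factors, Ndufs3 held the ETS letters at 2 separate places, and 20 of the 36 genes held no match. A match is a description and not a binding site. All 6 matches to the YY1 letters lay on the gene's own strand and began at positions 23 to 39, counting the first transcribed base as 1. The NRF1 letters began at positions from -112 to 18. For the YY1 and NRF1 letters the share of members lay furthest above that of measured genes, while for AAGGTCA it was above by less. The stretches of 24 bases with the YY1 and NRF1 letters are shown 5′ to 3′ on the gene's strand, with the matched letters in capitals.
Ndufa3, YY1 letters, chr7:3617387-3617410, plus strand: ccaagaacAAGATGGccgggagta
Ndufa9, YY1 letters, chr6:126849100-126849123, minus strand: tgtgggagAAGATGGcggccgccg
Ndufb8, YY1 letters, chr19:44555393-44555416, minus strand: gcggagaaggtgAAGATGGctgcc
Ndufc1, YY1 letters, chr3:51408918-51408941, minus strand: tgcggaacAAGATGGcgccgtccg
Ndufs4, YY1 letters, chr13:114388045-114388068, minus strand: gcctacaggAAGATGGcggcggtc
Ndufs7, YY1 letters, chr10:80249465-80249488, plus strand: ccgaggccAAGATGGcggcgctgg
Ndufa8, NRF1 letters, chr2:36049332-36049355, minus strand: gctggagaCGCATGCGcagatggt
Ndufaf4, NRF1 letters, chr4:24897963-24897986, plus strand: gatgtctgCGCATGCGcctgtgcg
Ndufaf5, NRF1 letters, chr2:140170655-140170678, plus strand: cccgttggCGCATGCGcctaatag

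No Nduf gene passed the test between knockout and wild type muscle (limma, Benjamini-Hochberg adjusted p of 0.05 over all probe sets). The smallest adjusted p was 0.781, for Ndufc1 and Ndufs1, and across the array 3 probe sets passed, or 0.0133%. At an unadjusted p below 0.05 there were 3 members lower in knockout, Ndufs1, Ndufc1 and Ndufs8, and 0 higher, against 2.86% lower and 3.37% higher among all genes. The changes of all 39 lay between -0.13 and 0.096. The 95% intervals reached no lower than -0.26 (Ndufs8, -16.7%) and no higher than 0.23 (Ndufa2, 17.6% more), as read by the brightest probe set of each gene.

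Small differences leaned to one side: 31 of the 39 genes were lower in knockout and 8 higher, with a median change of -0.023. Over all genes 52.6% were lower with a median of -0.0043, and among genes above the median level, where 38 members lie, 45.3% were lower with a median of 0.0076. This lean depended on the scaling and on single arrays. With each array centred on its median, 23 of 39 were lower with a median of -0.012 (45.4% of all genes were then lower). With a further quantile normalization 35 were lower with a median of -0.044 (52.2% of all genes were then lower). Without knockout replicate 2 the count was 22 and the median -0.0084, without wild type replicate 6 they were 24 and -0.011, and without wild type replicate 5 they were 25 and -0.015. Without knockout replicate 5 they were 32 and -0.035.

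**Figure D1:**
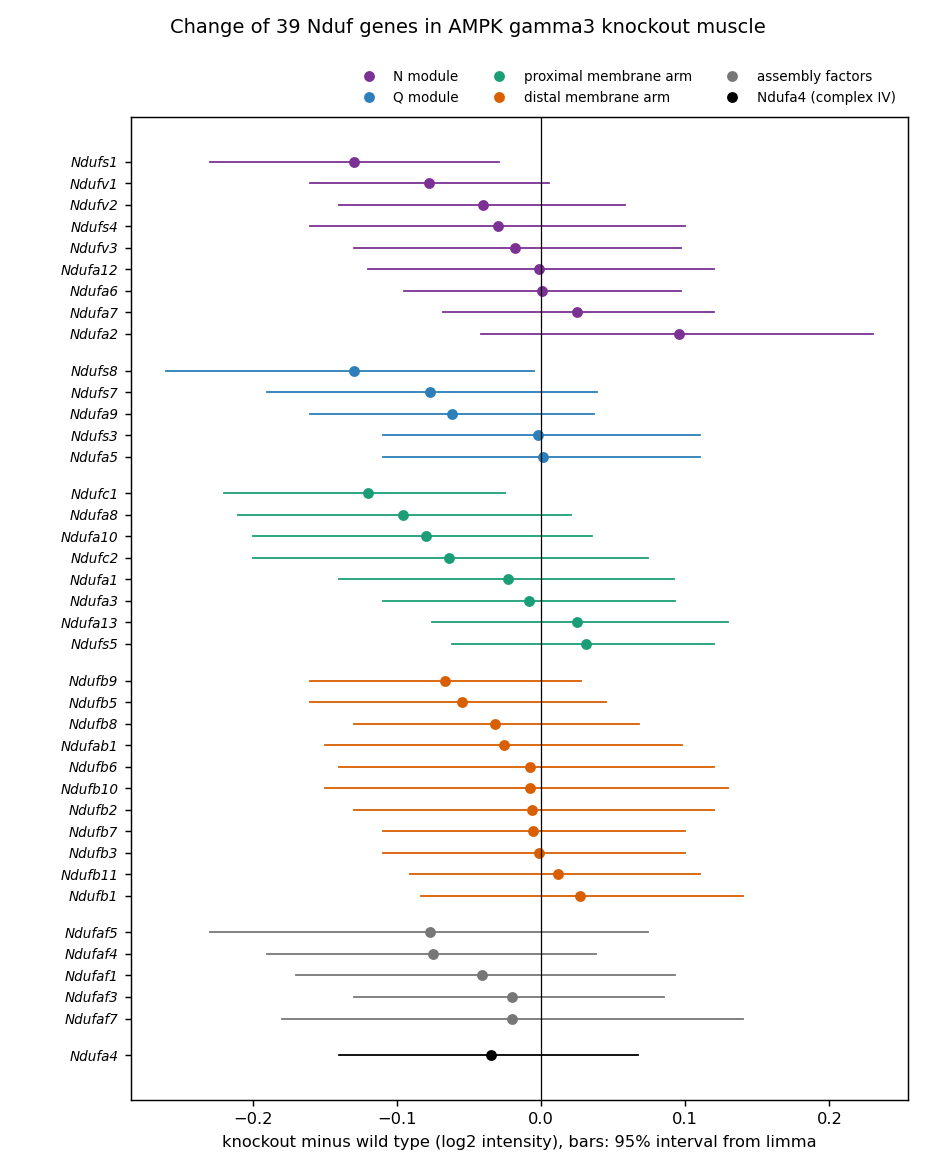
Change of each Nduf gene, knockout minus wild type on the log2 scale (x axis), grouped by place in complex I, with 95% intervals from limma over 6 knockout and 6 wild type arrays. Of the 39 points 31 lie left of 0, and the intervals of Ndufs1, Ndufs8 and Ndufc1 stop short of it, though none of them passed after adjustment.

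The 6 measured core subunits were all lower in knockout, with a median change of -0.077, against -0.0078 for the 27 accessory subunits, of which 19 were lower. Ndufv1, which binds NADH and the flavin, had levels of 11.53, 11.59, 11.52, 11.58, 11.54 and 11.54 in knockout, against 11.62, 11.61, 11.64, 11.63, 11.65 and 11.61 in wild type. The groups did not overlap, with all knockout values lower, and the spread among arrays of a genotype was the smallest of all members. The change was -0.078 ± 0.0397 (SE), or -5.28%, and did not pass (limma, adjusted p = 0.854). Its 2 further probe sets gave -0.074 and -0.090.

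Ndufs1, the largest subunit, carries iron-sulphur clusters of the N module. It had levels of 11.03, 11.10, 11.12, 11.16, 10.93 and 11.13 in knockout, against 11.22, 11.16, 11.23, 11.23, 11.16 and 11.26 in wild type. The groups met at 11.16, and the knockout array of replicate 5 was the lowest. The change was -0.13 ± 0.0483, or -8.70% (limma, adjusted p = 0.781). Ndufv2, the partner of Ndufv1, also with an iron-sulphur cluster, ran from 11.83 to 12.03 with a median of 11.92 in knockout and from 11.92 to 12.01 with a median of 11.96 in wild type. The groups overlapped widely, and the change was -0.040 ± 0.0464.

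Of the core subunits of the Q module, Ndufs8, which carries iron-sulphur clusters on the way to ubiquinone, had levels of 11.82, 11.72, 11.94, 11.81, 12.04 and 11.75 in knockout. In wild type it had 11.97, 11.83, 12.02, 12.11, 11.97 and 11.99. The groups overlapped, since knockout replicate 5 lay above all but 1 wild type array and wild type replicate 2 lay among the knockout arrays. The change was -0.13 ± 0.0614 (limma, adjusted p = 0.818). Its 5 further probe sets gave -0.063, -0.0048, 0.0093, -0.17 and -0.037, so the size of the difference depended on which one is read. Ndufs7, which carries the cluster next to ubiquinone, ran from 11.58 to 11.80 (median 11.75) in knockout and from 11.67 to 11.92 (median 11.79) in wild type, a change of -0.077 ± 0.0546. Ndufs3 was level at -0.0020 ± 0.0513, with knockout arrays from 11.17 to 11.40 and wild type arrays from 11.20 to 11.37.

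**Figure D2:**
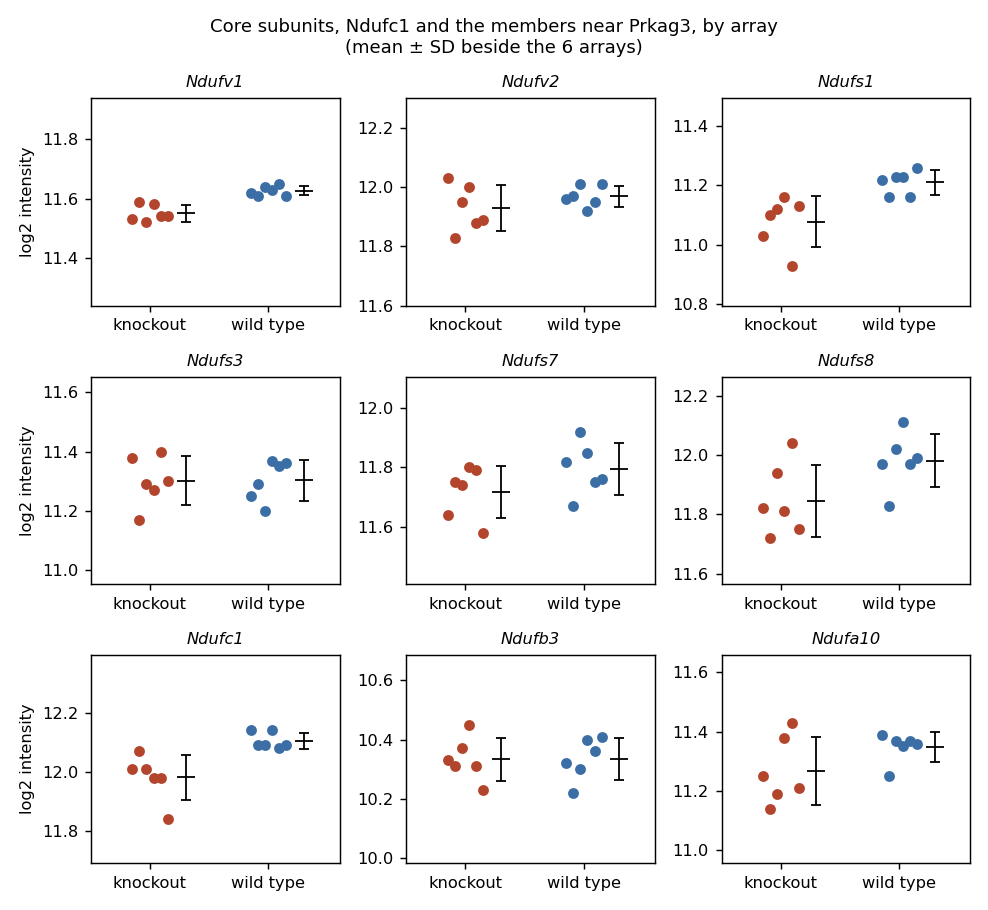
Log2 intensity (y axes, each spanning the same range) on the 6 knockout and 6 wild type arrays for the 6 core subunits, Ndufc1, Ndufb3 and Ndufa10, with mean ± SD beside them. Knockout and wild type points are apart for Ndufv1 and Ndufc1 and overlap or meet for the other genes shown.

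Accessory subunits of the hydrophilic arm moved both ways by small amounts. In the N module as a whole 6 of 9 genes were lower, with a median of -0.018. Ndufa2, a small subunit of that module, gave the largest value above 0 of all members, 0.096 ± 0.0654. Its levels ran from 10.39 to 10.78 (median 10.53) in knockout and from 10.29 to 10.54 (median 10.49) in wild type, and knockout replicates 4 and 5 lay above all wild type arrays. Ndufa7, another accessory subunit there, ran from 11.64 to 11.83 (median 11.71) in knockout and from 11.65 to 11.71 (median 11.70) in wild type, a change of 0.025 ± 0.0437, with 4 further probe sets all above 0. Ndufs4, whose loss in mice is a model of Leigh syndrome, gave -0.030 ± 0.0631, Ndufv3 -0.018 and Ndufa6 0.00078. Ndufa12 ran from 11.97 to 12.31 in knockout and from 12.07 to 12.29 in wild type, with a median of 12.19 in both and a change of -0.0018 ± 0.0582. A dim probe set of the gene, at a mean level of 4.01, gave -0.12 with an unadjusted p of 0.0279 (limma, adjusted p = 0.810), while the 2 other bright ones gave 0.0091 and -0.015. In the Q module, 4 of 5 genes were lower with a median of -0.062. Ndufa9, at the junction of the arms, gave -0.062 ± 0.0466, with all 6 knockout arrays below the wild type median. Ndufa5 gave 0.0012 and, at its dimmer probe set, 0.13 ± 0.0684.

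In the proximal membrane arm 6 of 8 genes were lower, with a median of -0.044. Ndufc1, a small accessory subunit of the membrane arm, had levels of 12.01, 12.07, 12.01, 11.98, 11.98 and 11.84 in knockout, against 12.14, 12.09, 12.09, 12.14, 12.08 and 12.09 in wild type. The groups did not overlap, and knockout replicate 6 was the lowest. The change was -0.12 ± 0.0463, or -8.15% (limma, adjusted p = 0.781), but the second probe set of the gene gave -0.0037 ± 0.0626. Ndufv1 and Ndufc1 were the 2 members of 39 for which all knockout values lay under all wild type values, a pattern found in 0.153% of all genes, and 0 members had the opposite pattern. Ndufa8 gave -0.096 ± 0.0557, with arrays from 10.97 to 11.24 (median 11.18) in knockout and from 11.11 to 11.37 (median 11.24) in wild type. Ndufc2 gave -0.064 ± 0.0655, Ndufa1, an X-linked subunit, -0.023, and Ndufa3 -0.0083. Ndufs5 ran from 10.73 to 10.88 (median 10.81) in knockout and from 10.71 to 10.83 (median 10.79) in wild type, a change of 0.031 ± 0.0444. Ndufa13, also known as GRIM-19, ran from 11.74 to 11.94 in knockout and from 11.67 to 11.86 in wild type, with a median of 11.81 in both and a change of 0.025 ± 0.0481. Both sets of groups overlapped widely.

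In the distal membrane arm 9 of 11 genes were lower, but by little, with a median of -0.0076 and a range from -0.067 to 0.027. Ndufb9 gave -0.067 ± 0.0450, with knockout arrays from 12.33 to 12.52 and wild type arrays from 12.41 to 12.50. Its further probe sets gave 0.015 and 0.011. Ndufb5 gave -0.055 ± 0.0478, Ndufb8 -0.032 ± 0.0474 and Ndufab1, which is also the mitochondrial acyl carrier protein, -0.026 ± 0.0588. Ndufb2, Ndufb3, Ndufb6, Ndufb7 and Ndufb10 lay between -0.0078 and -0.0017, and Ndufb11, encoded on the X chromosome, at 0.012. Ndufb1 ran from 8.20 to 8.39 (median 8.27) in knockout and from 8.15 to 8.35 (median 8.28) in wild type, a change of 0.027 ± 0.0521.

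The 5 assembly factors were all lower, with a median of -0.041, and none had an unadjusted p below 0.05. Ndufaf5, which in human cells modifies NDUFS7, ran from 7.90 to 8.33 (median 8.11) in knockout and from 8.04 to 8.35 (median 8.17) in wild type, a change of -0.077 ± 0.0717. Ndufaf4 ran from 8.20 to 8.44 (median 8.32) in knockout and from 8.29 to 8.49 (median 8.39) in wild type, a change of -0.075 ± 0.0536. Ndufaf1, an early factor of membrane arm assembly, ran from 8.15 to 8.39 (median 8.33) in knockout and from 8.12 to 8.50 (median 8.37) in wild type, a change of -0.041 ± 0.0632. The groups overlapped for all 5 factors. Ndufaf3, the partner of Ndufaf4, ran from 8.23 to 8.50 (median 8.36) in knockout and from 8.32 to 8.41 (median 8.40) in wild type, a change of -0.020 ± 0.0498. Ndufaf7, a mitochondrial methyltransferase, ran from 6.35 to 6.79 (median 6.67) in knockout and from 6.40 to 6.75 (median 6.69) in wild type, a change of -0.020 ± 0.0752. The mean level of the 5, each gene centred on its own average, ran from -0.19 to 0.051 over knockout arrays and from -0.059 to 0.11 over wild type arrays, with knockout replicate 2 the lowest. Ndufa4, named as a complex I subunit but now assigned to complex IV, ran from 12.12 to 12.25 in knockout and from 12.16 to 12.36 in wild type, with a median of 12.20 in both and a change of -0.035 ± 0.0479. Of 9 measured assembly genes with other names, 6 were lower with a median of -0.037, and 0 passed. Acad9, Tmem70 and Tmem186 gave -0.091, -0.087 and -0.063, and Lyrm2 gave 0.10 ± 0.0503 (limma, adjusted p = 0.837).

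Of the members, 3 lie on chromosome 1 not far from the deleted gene. In the order of genes that assembly GRCm38.p6 gives, counted in measured genes from Prkag3, Ndufb3 stands at place -63, Ndufs1 at place -48 and Ndufa10 at place 99, out of 708 measured genes on that chromosome. They gave different values: Ndufs1 is described above, Ndufb3 of the distal arm gave -0.0017 ± 0.0493 and Ndufa10 of the proximal arm -0.080 ± 0.0546. Ndufb3 ran from 10.23 to 10.45 (median 10.32) in knockout and from 10.22 to 10.41 (median 10.34) in wild type. Ndufa10 ran from 11.14 to 11.43 (median 11.23) in knockout and from 11.25 to 11.39 (median 11.36) in wild type, and its dimmer probe set gave -0.042. A chromosome segment carried along with the deleted allele cannot be told apart from the deletion for these genes. Without the 3, 28 of 36 members were lower with a median of -0.022.

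Several probe sets of a gene did not always give the same sign. Of 20 genes with more than 1 probe set, all probe sets were lower for 9, all higher for 2 and mixed for 9. The widest gap between probe sets of a gene was 0.179, for Ndufs8. Over the 74 probe sets 51 were lower, 5 of them at an unadjusted p below 0.05, and 0 were higher at that level.

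The members varied together from array to array, by more than the genotypes differed. The mean of the 39 genes, each centred on its own average, was -0.022, -0.086, 0.0063, 0.016, 0.053 and -0.062 on knockout arrays 1 to 6. On wild type arrays 1 to 6 it was -0.0042, -0.056, -0.0034, 0.052, 0.046 and 0.060. The genotype means, -0.016 ± 0.0517 in knockout and 0.016 ± 0.0447 in wild type (SD, n = 6 each), differed by -0.031, less than either SD. On wild type replicate 2, 36 of 39 members lay below their wild type mean (43.3% of all genes did), on knockout replicate 6, 30 lay below their knockout mean (49.0% of all genes) and on knockout replicate 2, 28 did (44.4% of all genes). On the bright side, 29 members lay above the knockout mean on knockout replicate 5, while 57.3% of all genes lay below it. On wild type replicates 4 and 6, 32 and 30 members lay above the wild type mean, while 56.6% and 60.9% of all genes lay below it. Knockout replicate 2 held the lowest of the 12 values for 16 members, and knockout replicate 5 the highest for 12. The matching shares of all genes were not computed, so these counts cannot be read as particular to the members. For single genes the median SD within genotype was 0.0787 for members and 0.0984 for genes above the median level. These 2 sets were not matched for level, with median levels of 11.31 and 8.51.

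Other features of the arrays moved in part with this level. The 3′ over 5′ log2 ratio of the Actb and Gapdh controls, which reads RNA quality, was -0.18, -0.22, -0.074, -0.12, 0.0017 and -0.19 on knockout arrays 1 to 6, and -0.12, -0.16, -0.096, -0.13, -0.18 and -0.16 on wild type arrays 1 to 6. Among knockout arrays, replicates 2 and 6 were lowest and replicate 5 highest in both measures. Among wild type arrays the orders differed, since replicate 5 had the lowest ratio with an Nduf level of 0.046 and replicate 3 the highest ratio with an Nduf level of -0.0034. With this ratio in the model, an alternative chosen after seeing the data, 33 of 39 members were lower with a median of -0.030. The level of 11 slow fibre markers, of which 10 were lower in knockout and 0 passed, ran from -0.57 to 0.77 (median -0.27) in knockout and from -0.54 to 0.82 (median 0.19) in wild type. It was highest in knockout on replicate 2, where the Nduf level was lowest, and lowest in wild type on replicate 2, where the Nduf level was lowest too. With the slow marker level in the model 27 of 39 members were lower with a median of -0.024. Among other cell types, 4 of 4 adipocyte markers were higher in knockout, with a mean level from -0.057 to 0.31 there and from -0.42 to 0.14 in wild type, and 5 of 6 endothelial markers were lower, with levels from -0.18 to 0.051 and from -0.056 to 0.16. Both measured Schwann cell markers were higher, with levels from -0.14 to 0.21 in knockout and from -0.28 to 0.065 in wild type, and 5 of 6 fibroblast markers were lower, with levels from -0.40 to 0.38 and from -0.22 to 0.22. Of 6 macrophage markers 3 were lower, with levels from -0.11 to 0.13 and from -0.11 to 0.067, and of 4 satellite cell markers 2 were lower, with levels from -0.044 to 0.047 and from -0.070 to 0.062. The part of these cell types in the Nduf values was not tested.

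**Figure D3:**
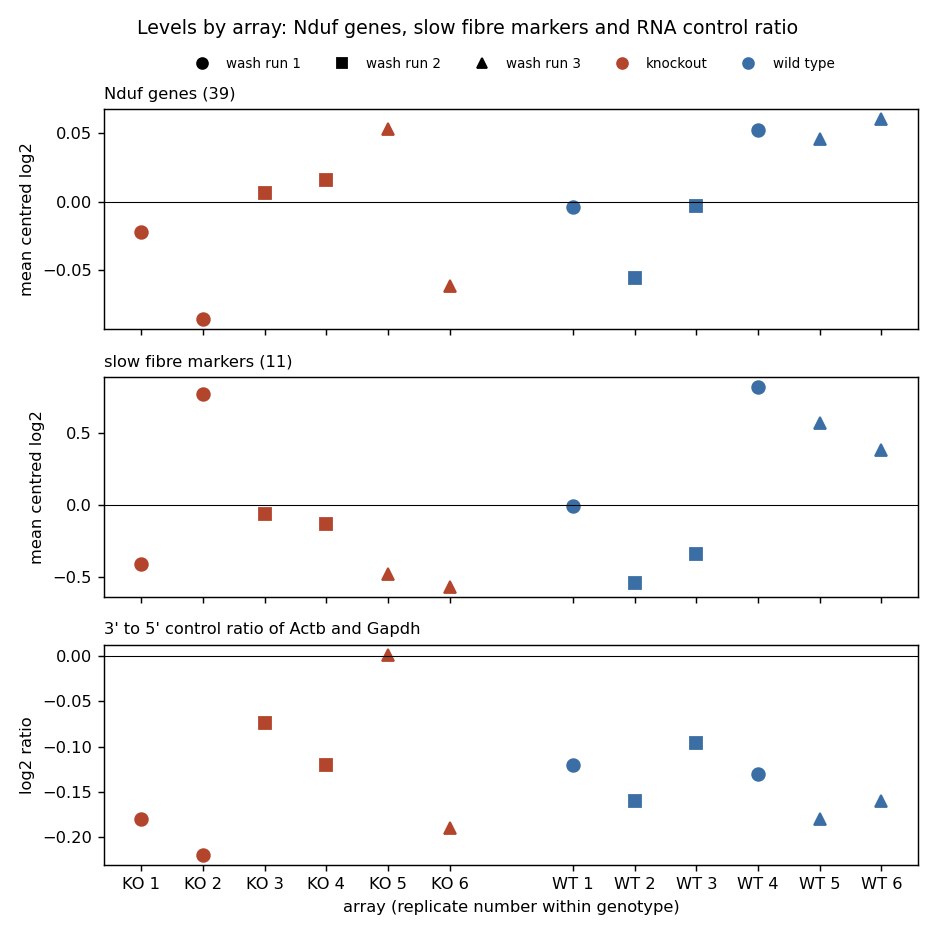
Mean centred log2 level of the 39 Nduf genes (top), of 11 slow fibre markers (middle) and the log2 3′ to 5′ control ratio (bottom) on each array, knockout left and wild type right, with the symbol giving the wash run. The Nduf level of knockout arrays spans -0.086 to 0.053 and that of wild type arrays -0.056 to 0.060, and the ranges overlap.

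Within wash runs the lean of the members was not steady. In runs 1, 2 and 3, each with 2 arrays of each genotype, 35, 12 and 32 of the 39 genes were lower in knockout, with medians of -0.062, 0.034 and -0.053. Over all genes 52.1%, 53.3% and 46.5% were lower in these runs. The mean level of the members differed by -0.078, 0.041 and -0.057. The slow fibre markers differed by -0.23, 0.34 and -1.0 in the same runs, with the same signs. A total of 19 members were lower in runs 1 and 3 and higher in run 2, among them all but 1 of the 5 assembly factors. The share of all genes with this pattern was not computed, so the count cannot be read as particular to the members. Run 2 holds wild type replicate 2, the lowest wild type array.

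Lower values in each of the 3 runs were found for 9 of 39 members, against 13.8% of all genes, and 0 members were higher in all 3. The 9 were the core subunits Ndufv1, Ndufv2, Ndufs1, Ndufs7 and Ndufs8, and the accessory subunits Ndufa9, Ndufa10, Ndufb5 and Ndufc1. Ndufv1 gave -0.067, -0.073 and -0.094 in runs 1, 2 and 3. Ndufs1 gave -0.16, -0.055 and -0.18, Ndufs8 -0.27, -0.047 and -0.085, and Ndufc1 -0.097, -0.094 and -0.18. The mean level of the 6 core subunits differed by -0.11, -0.029 and -0.089, and ran from -0.083 to -0.0056 on knockout arrays and from -0.023 to 0.078 on wild type arrays. The difference between core and accessory subunits was not tested.

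**Figure D4:**
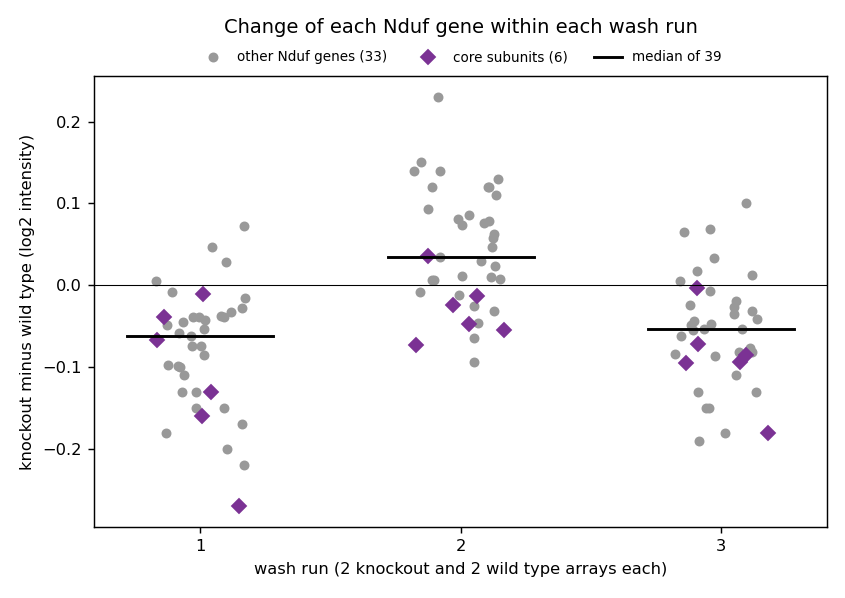
Change of each of the 39 Nduf genes (knockout minus wild type, log2, y axis) within wash runs 1, 2 and 3, with the 6 core subunits as diamonds and the median as a line. The medians are -0.062, 0.034 and -0.053, and of the core subunits Ndufs3 alone is above 0 in run 2.

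Other mitochondrial gene groups gave values on either side of the Nduf genes. Of 46 genes of complexes II to V, 40 were lower with a median of -0.060, and 29 of 46 were lower in each of the 3 wash runs, where the group differed by -0.076, -0.026 and -0.088. Its mean level was -0.032 ± 0.0334 in knockout and 0.032 ± 0.0329 in wild type (SD, n = 6 each). Of 74 mitochondrial ribosomal protein genes, 36 were lower with a median of 0.0012, and the group differed by -0.052, 0.060 and -0.018 in the runs. None of these genes passed, and the differences between the groups were not tested. Of 8 regulators of respiratory genes, 2 were lower and 6 higher, with a median of 0.022. Ppargc1a, which encodes PGC-1alpha, gave -0.29 ± 0.0758 and the related coactivator Pprc1 0.18 ± 0.0592, with limma adjusted p = 0.564 and 0.769. Ppargc1b, another related coactivator, gave 0.0011 and Tfam 0.017. Esrra, the oestrogen-related receptor alpha, gave -0.070, and Nrf1, Yy1 and Gabpa, whose letters were searched above, gave 0.028, 0.030 and 0.050.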

How the data were processed

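Per the submitters' processing notes the authors made the values with RMA, which subtracts background, brings the arrays to one intensity distribution and summarizes each probe set. Its version is not given in the sources used here. The deposited intensities are linear and were log2-transformed here. Such scaling hides a shift common to most transcripts. Of 22690 probe sets, 64 controls were left out. Gene names came from the platform annotation, and 8 probe sets naming an Nduf gene with another gene were not used. The array records gave cage letter, fluidics module and the hybridization times from which the wash runs were grouped here. Their genotype note matched the label on 12 of 12 arrays.

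Knockout was compared with wild type with limma 3.58.1 in R 4.3.3 (lmFit, eBayes, two-sided, genotype only, Benjamini-Hochberg over 22626 probe sets). The test was checked on simulated arrays with noise independent between probe sets. Such arrays lack the shared variation of members described above, so the check does not cover it. Members and gene lists were chosen with earlier results of these data known, so lists are described by counts and medians, without tests. The text gives every member, and in full the core subunits, members near Prkag3, the 5 largest changes each way, those at an unadjusted p below 0.05, genes whose probe sets differ in sign with 1 of them at that p or lying over 0.2 apart, assembly factors and Ndufa4. The alternatives were replicate, wash run, cage and module blocks, array centring, quantile normalization, a dim filter, a trended robust prior and array weights. Others were probe set means, the slow fibre level or RNA quality as a covariate, leaving out arrays, and each wash run alone. Leaving out the members near Prkag3, or the assembly factors and Ndufa4, reused the main fit, so no member could newly pass there. The number of arrays limits the precision.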

Additional observations from a re-analysis of the deposited data

Results flagged for a closer look

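Within each genotype, the highest and lowest array of every member and of the mean Nduf level were set against the others by the gap to the nearest array over the whole range (Dixon's ratio). Of 80 groups of arrays, 3 exceeded its 95% critical value for 6 arrays, where chance gives about 1 in 20. Ndufa10 on wild type replicate 2 was 11.25, with the nearest wild type array at 11.35 (ratio 0.717). Ndufa13 on the same array was 11.67, with the nearest at 11.80 (ratio 0.673). Ndufaf7 on wild type replicate 1 was 6.40, with the nearest at 6.68 (ratio 0.798). Wild type replicate 2 also had the lowest mean Nduf level in its genotype.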

How the results depend on the processing

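No member passed under any of the 27 alternatives that refitted the data. Of 1052 recomputed single-gene values 0 passed (smallest limma adjusted p = 0.503, Ndufa2 in wash run 2 alone). A single wash run held only 2 arrays of each genotype. Sign changes occurred in 121 of these values, in 30 of 39 genes, and Ndufa9, Ndufa10, Ndufb5, Ndufc1, Ndufs1, Ndufs7, Ndufs8, Ndufv1 and Ndufv2 had none. The count of 31 lower members was 20 with the fluidics module as a block and 12 in wash run 2 alone. In that run the median change turned to 0.034 and the difference in mean level to 0.041. Leaving out 1 array gave counts from 22 (without knockout replicate 2) to 34 (without wild type replicate 2), medians from -0.035 (without knockout replicate 5) to -0.0084 (without knockout replicate 2) and level differences from -0.046 (without wild type replicate 2) to -0.017 (without knockout replicate 2). The median was -0.012 with the module block. With the replicate number as a block the count was 31, the median -0.023 and 0 members passed. Knockout and wild type arrays of the same number carried the same cage letter. Their deviations from the genotype means correlated weakly (from -0.15 to 0.203). Weak correlations cannot exclude pairing, so whether the number pairs mice is not known. The cause of these shifts was not tested. Signal over background was not measured here.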
